A study of Mus musculus with 4 samples.

Results

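The 9 genes described here mark macrophages or were used to sort them. They are Ptprc, Itgam and Adgre1, whose products CD45, CD11b and F4/80 were the antigens of the sort, and Csf1r, Mertk, Axl, Cd68, Cd14 and Lyz2, which are widely used as macrophage or myeloid genes. They were chosen by name, as the rows of the raw count table whose Ensembl identifiers carry these symbols in GENCODE release M21, and all 9 were found among 54146 rows. Tumor-associated macrophages came from MCA205 tumors, a mouse fibrosarcoma model, in 2 vehicle and 2 propranolol libraries, numbered as replicates 1 and 2 in each group. According to the methods the mice were C57BL/6, and per the labels they were females aged 8 to 16 weeks that received MCA205 cells under the skin of the flank. The propranolol group drank water with propranolol, a nonselective blocker of beta-adrenergic receptors, at 0.5 g/L from the day of inoculation, and the vehicle group did not. In both groups CD45+ cells were enriched with magnetic beads before live CD11b+F4/80+ cells were sorted by FACS, and poly-adenylated RNA was sequenced. The study calls the libraries biological replicates, and the number of mice behind each library is not given in the sources used here.

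CD45 is a tyrosine phosphatase on the surface of nearly all nucleated blood cells and sets the activity of SRC-family kinases. CD11b is the alpha chain of an integrin that binds complement and ICAM1, and F4/80 is an adhesion receptor found mostly on mouse macrophages. CSF1R receives the growth factors CSF1 and IL-34, on which most macrophages depend for survival, while MERTK and AXL bind dying cells through the bridging ligands GAS6 and protein S. CD68 is a glycoprotein of lysosomes, CD14 hands bacterial lipopolysaccharide to TLR4, and lysozyme M, the product of Lyz2, cuts bacterial cell walls.

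Many myeloid promoters are known to carry sites for PU.1, the ETS-family factor encoded by Spi1, so the stretch before a RefSeq start is shown for 5 of the markers. The sequences are RefSeq promoter windows on GRCm38.p6, read on the strand of the gene, of up to 250 bases before the start and without any base that GENCODE counts as exon. The window of Ptprc lies inside the span of the gene in GENCODE, before a start that RefSeq places further in, and a second window of this gene, of 70 bases and within the first, is not shown. Capitals mark the letters GAGGAA on either strand, a short core found in many sites of PU.1. The sort markers come first.
Ptprc, chr1:138175307-138175555, minus strand: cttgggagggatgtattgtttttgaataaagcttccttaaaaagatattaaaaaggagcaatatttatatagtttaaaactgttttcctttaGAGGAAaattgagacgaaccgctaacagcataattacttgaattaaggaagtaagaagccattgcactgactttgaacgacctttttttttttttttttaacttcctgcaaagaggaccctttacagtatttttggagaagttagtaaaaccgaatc
Itgam, chr7:128062390-128062639, plus strand: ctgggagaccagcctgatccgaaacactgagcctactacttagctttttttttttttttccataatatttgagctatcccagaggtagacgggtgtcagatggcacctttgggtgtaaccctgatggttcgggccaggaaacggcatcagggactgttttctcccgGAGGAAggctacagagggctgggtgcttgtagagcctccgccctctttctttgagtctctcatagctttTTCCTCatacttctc
Axl, chr7:25788734-25788983, minus strand: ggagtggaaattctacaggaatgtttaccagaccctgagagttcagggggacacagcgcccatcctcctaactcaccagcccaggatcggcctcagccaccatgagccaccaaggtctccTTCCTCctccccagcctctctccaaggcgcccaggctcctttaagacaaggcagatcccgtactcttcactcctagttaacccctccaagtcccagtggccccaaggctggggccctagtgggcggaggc
Mertk, chr2:128698665-128698914, plus strand: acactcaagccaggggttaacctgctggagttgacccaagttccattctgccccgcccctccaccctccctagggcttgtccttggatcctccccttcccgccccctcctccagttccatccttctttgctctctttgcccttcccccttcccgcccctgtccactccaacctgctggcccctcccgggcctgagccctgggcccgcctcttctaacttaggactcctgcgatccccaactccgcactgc
Cd68, chr11:69666171-69666420, minus strand: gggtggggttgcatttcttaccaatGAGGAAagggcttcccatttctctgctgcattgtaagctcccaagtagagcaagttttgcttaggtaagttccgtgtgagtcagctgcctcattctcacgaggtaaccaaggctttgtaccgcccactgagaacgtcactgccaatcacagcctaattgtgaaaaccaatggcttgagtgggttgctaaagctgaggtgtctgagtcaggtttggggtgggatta
The letters occurred 2 times in the window of Itgam, 1 time in those of Ptprc, Axl and Cd68, and not in that of Mertk. They were also absent from the window of Lyz2, which was searched but is not shown. Among all 32851 windows of 250 bases in the RefSeq table, 23.3% held them at least 1 time, so their presence is common. The GC box GGGCGG, searched on both strands as well, occurred 3 times before Mertk, 1 time each before Itgam, Axl and Cd68, and in 32.7% of all windows. Searched on both strands too, TATAAA occurred 1 time in the window of Ptprc, on the strand opposite to the gene. Of all windows 12.4% held it in at least 1 place. No window shown held the C/EBP palindrome TTGCGCAA, which was present in 54 of the 32851. No motif searched contains another. These matches describe letters only, and no binding was measured in these cells.

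All 9 markers were transcribed in all 4 libraries. The libraries held 13798249 and 23018142 counts in the vehicle group and 39818103 and 16424081 counts in the propranolol group, and the lowest count of a marker was 1204, that of Mertk in vehicle replicate 1. Together the markers took 1.34% and 1.29% of the counts in the vehicle libraries and 1.44% and 1.34% in the propranolol libraries. Their share therefore overlapped between the groups. Propranolol was set against vehicle with the quasi-likelihood test of edgeR on TMM-normalized counts over all 14688 genes that passed a filter on low counts, and all 9 markers passed it. A gene was called higher or lower when its Benjamini-Hochberg adjusted p was under 0.05 and it differed by over 1.5-fold. Csf1r and Cd14 were called higher after propranolol, Ptprc was called lower, and the other 6 were not called. This is 3 of 9 markers, beside 27.8% of all tested genes called in either direction, 12.2% called higher and 15.6% called lower. Of all tested genes 1798 were called higher and 2286 lower, and when libraries were scaled by their totals alone these numbers were 609 and 3497. Vehicle replicate 1 stood apart from vehicle replicate 2 in genes of fibroblasts, as given below. Without it the log2 fold changes were -0.70 for Ptprc, 0.68 for Csf1r and 0.83 for Cd14, all of them called, and Cd68 was called as well at 0.59.

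None of the 3 calls was made after a correction for the GC content of transcripts, which fitted each library's deviation from the mean log2 CPM of a gene as a smooth curve of the GC content of its longest transcript, and in which 10.8% of all tested genes were called. Across all tested genes the log2 fold change rose with GC content, with a Spearman correlation of 0.577 over genes that share the same 4 libraries, and it was 0.0526 after the correction. Ptprc has a transcript with 39.4% GC, below the 10th percentile of tested genes (41.2%), whereas Csf1r (54.5%), Axl (54.2%), Cd68 (52.9%) and Cd14 (52.5%) lie above the median of 49.6%. Mertk (48.1%), Lyz2 (48.3%), Itgam (48.9%) and Adgre1 (47.2%) lie a little below it. The median log2 fold change was -0.93 over genes with 38 to 40% GC and 0.41 over those with 54 to 56%. With edgeR and the correction, 6 markers had an unadjusted p under 0.05, 2 an adjusted p under 0.05, and 0 were called. For the markers, and for the partner and macrophage genes named below, the corrected value is given as well where the call or the direction differs.

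**Figure D1:**
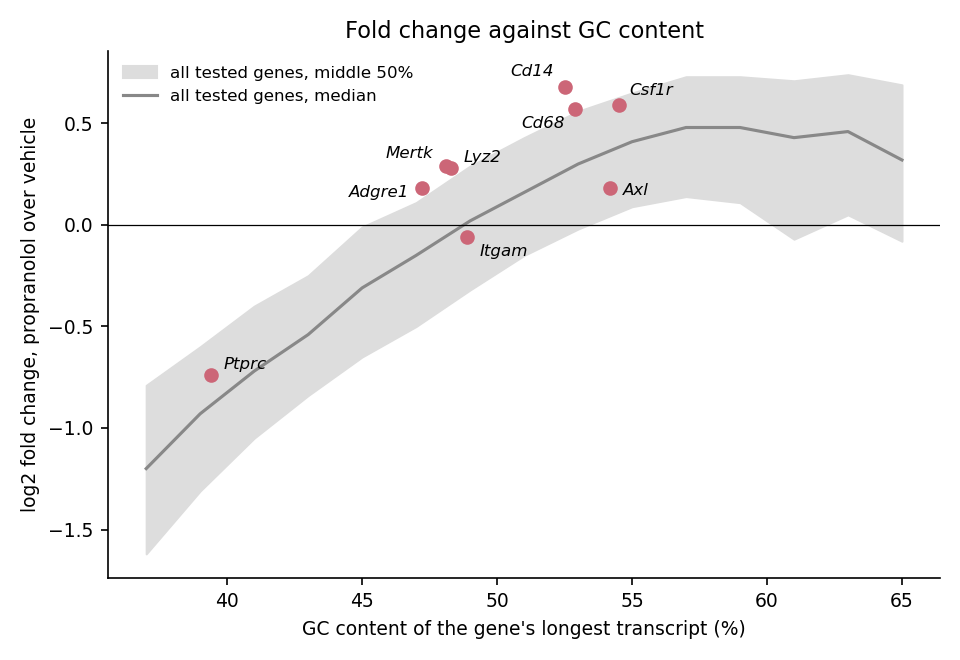
Log2 fold change of propranolol over vehicle (vertical axis) against the GC content of the longest transcript in percent (horizontal axis), with the 9 markers as points and the median and middle 50% of all tested genes in bins of 2 percentage points as line and band. Ptprc, at 39.4% GC and a log2 fold change of -0.74, lies in the bin of 38 to 40% GC, whose median is -0.93, and Csf1r, Cd68 and Cd14 lie above the median at higher GC content.

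Without the GC correction, the sort marker transcripts did not move together between the groups. Ptprc fell, while Itgam and Adgre1 were not called. With the correction none of them was called, at log2 fold changes of 0.08 for Ptprc, -0.10 for Itgam and 0.28 for Adgre1. Since the antibodies selected cells by these proteins, their presence is set by the sort and only their levels are compared here.

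Ptprc (ENSMUSG00000026395.16), on the minus strand of chr1:138062861-138175708 (GRCm38, as are all gene positions here), had 752 and 779 CPM (counts scaled by the TMM-normalized library size) in the vehicle libraries and 479 and 442 CPM in the propranolol libraries. The groups did not overlap, and the lowest vehicle library was well above the highest propranolol library. The mean was 766 ± 18.7 CPM in the vehicle group and 460 ± 26.3 CPM in the propranolol group (SD, n = 2 each). The log2 fold change was -0.74 (SE 0.09), or 0.601-fold, with an edgeR adjusted p of 0.000301. With the GC correction it was 0.08 (SE 0.09, edgeR adjusted p = 0.595), so that the direction was turned. Before the correction the median over tested genes with 38 to 40% GC was -0.93, below the value of Ptprc. In a bulk sample, fewer cells with the transcript and less of it in each cell cannot be told apart, and neither was tested.

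Transcripts of other blood cells that carry CD45 and of cells that lack it moved with the same groups, in both directions. Genes of monocytes and neutrophils, which carry CD45, were in part called higher, as given with Cd14 below, while genes of T cells and NK cells were called lower. Of the T cell list, 13 of 15 tested genes were called lower and 0 higher. Of all tested genes, 15.6% were called lower and 12.2% higher. The summed TPM of the T cell list (transcript abundance scaled by exon length and library, a level per length) was 459 and 533 in the vehicle libraries. It was 192 and 110 in the propranolol libraries. Its most abundant gene by mean TPM over the 4 libraries, as in all lists below, was Trac, the constant chain of the alpha T cell receptor, which had a mean of 73.7 TPM in the vehicle and 27.3 TPM in the propranolol group. All 9 genes of the NK cell list were called lower, with a summed TPM of 220, 226, 66 and 32 in vehicle 1, vehicle 2, propranolol 1 and propranolol 2, and its most abundant gene was Prf1, which encodes perforin. None of the genes on these lists was at 0 in all libraries. After the GC correction 12 T cell genes were called lower. Among them was Cd5, which was not called before the correction, and some of the earlier T cell calls were lost. Of the NK cell genes 7 were still called lower. The fibroblast and fibrosarcoma list, of cells that lack CD45, had 14 of 16 genes called lower and a negative fold change in the other two as well, with a summed TPM of 1806 in vehicle replicate 1, 751 in vehicle replicate 2, and 354 and 375 in the propranolol libraries. Its most abundant gene was Col1a1, a collagen, and vehicle replicate 1 stood apart from vehicle replicate 2. Without vehicle replicate 1 the log2 fold change of Ptprc was -0.70 (edgeR adjusted p = 1.19e-05), and the part of these cells in it was not tested.

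Genes that act on CD45 or that CD45 acts on were listed with it. Of the 12 that were tested, 2 were called higher and 3 lower, beside 27.8% of all tested genes called in either direction. The median log2 fold change was -0.10, beside -0.02 for all tested genes. Fgr, a SRC-family kinase of myeloid cells, rose with a log2 fold change of 0.64 (SE 0.11), and Csk, which phosphorylates the inhibitory site of these kinases, rose with 0.62 (SE 0.09). With GC-corrected counts these values were 0.35 and 0.17, and neither gene was called. Lck, the SRC-family kinase of T cells, fell from 43.0 and 46.8 CPM to 27.3 and 13.9 CPM, and Ptpn22, a phosphatase that acts with CSK, fell from 41.7 and 48.1 CPM to 23.4 and 18.2 CPM. Both were also called lower after the GC correction, at -1.47 and -0.83. Yes1, a broadly expressed SRC-family kinase, fell as well, but from a level of 2.02 and 1.35 CPM to 0.137 and 0.131 CPM, so few counts lie behind it, and it was called after the correction too, at -2.98. In that fit 0 of the 12 genes were called higher by edgeR and 4 lower, the further one being Ptprcap, which encodes a protein bound to CD45, at -1.12 (edgeR adjusted p = 0.0223, against 0.0713 without the correction). The most abundant gene of the list per length, Ptpn6 (the phosphatase SHP-1), had a log2 fold change of 0.35 (-0.06 after the GC correction) and was not called.

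Itgam (ENSMUSG00000030786.18), on the plus strand of chr7:128062640-128118491, had 358 and 351 CPM in the vehicle libraries and 369 and 312 CPM in the propranolol libraries. The groups overlapped, with both extremes in the propranolol group. Its log2 fold change was -0.06 (SE 0.10, edgeR adjusted p = 0.683), and it was 0.01 without vehicle replicate 1 and 0.09 without propranolol replicate 2, so no direction can be given. This value is the smallest in size among the 9 markers. The level of Itgam itself is uncertain, because 3450 of its 5024 exon bases (68.67%) are also exons of Gm49368, an annotated gene on the same strand, and fragments that overlap 2 genes are left out by the default of featureCounts. Gm49368 held 17, 16, 71 and 28 counts in vehicle 1, vehicle 2, propranolol 1 and propranolol 2. Over all exon bases Itgam had a mean of 213 TPM, and over the 1574 bases that no other gene shares 679 TPM. The ordering of Itgam among the markers by level therefore depends on the length taken.

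Of the 10 genes listed as partner, relatives and ligands of CD11b, 3 were called higher and 1 lower. Among all tested genes 27.8% were called in either direction. The median log2 fold change of the list was 0.54. Itgb2, the beta chain CD18 that CD11b needs to reach the surface, had 609 and 694 CPM in the vehicle and 997 and 951 CPM in the propranolol libraries. Its groups did not overlap, but its log2 fold change of 0.58 (SE 0.10, edgeR adjusted p = 0.00122) lay just under the 1.5-fold threshold. Per length Itgb2 was 2.80 and 3.25 times as abundant as Itgam in the vehicle libraries and 4.45 and 5.01 times in the propranolol libraries, so the chains of this integrin did not keep 1 ratio. The size of this ratio depends on the length taken for Itgam, since the mean over the 4 libraries was 805 TPM for Itgb2, and 213 or 679 TPM for Itgam over all or over unshared exon bases. Icam1, a ligand of the integrin, rose with a log2 fold change of 0.63, and Fermt3 (kindlin-3) and Tln1 (talin-1), which switch integrins on from inside the cell, rose with 0.92 and 0.65. Cd47, the ligand of SIRP-alpha that signals against uptake, fell with -0.78. Sirpa itself, first in the list by mean TPM over the 4 libraries but below Itgb2 in the propranolol group, had 1279 and 1280 CPM in the vehicle and 1510 and 1462 CPM in the propranolol libraries and was not called, with a log2 fold change of 0.22 (-0.17 after the GC correction). With GC-corrected counts 0 of the 10 were called by edgeR, with values of 0.25 for Itgb2, 0.20 for Icam1, 0.45 for Fermt3, 0.19 for Tln1 and -0.28 for Cd47.

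Adgre1 (ENSMUSG00000004730.14), on the plus strand of chr17:57358691-57483527, had 974 and 1006 CPM in the vehicle and 1150 and 1099 CPM in the propranolol libraries. The groups did not overlap, which was the case for 8 of the 9 markers, 7 of them with higher and 1 with lower propranolol libraries, beside 72.6% of all tested genes. Its log2 fold change of 0.18 (SE 0.09) had an edgeR adjusted p of 0.117, was 0.28 after the GC correction and -0.05 with library totals. Of the 3 genes listed with it, Adgre5 and Adgre4 are relatives of the same receptor family and Cd55 encodes a ligand of the first, and none was called by edgeR. Adgre5 (CD97) had 64.6 and 70.1 CPM in the vehicle and 96.0 and 100 CPM in the propranolol libraries (log2 fold change 0.54), and Adgre4, with under 7 CPM in every library, had a log2 fold change of -0.38 (0.45 after the GC correction). Cd55, named after its values were seen, had between 1.18 and 2.35 CPM and a log2 fold change of -0.91 (edgeR adjusted p = 0.112).

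**Figure D2:**
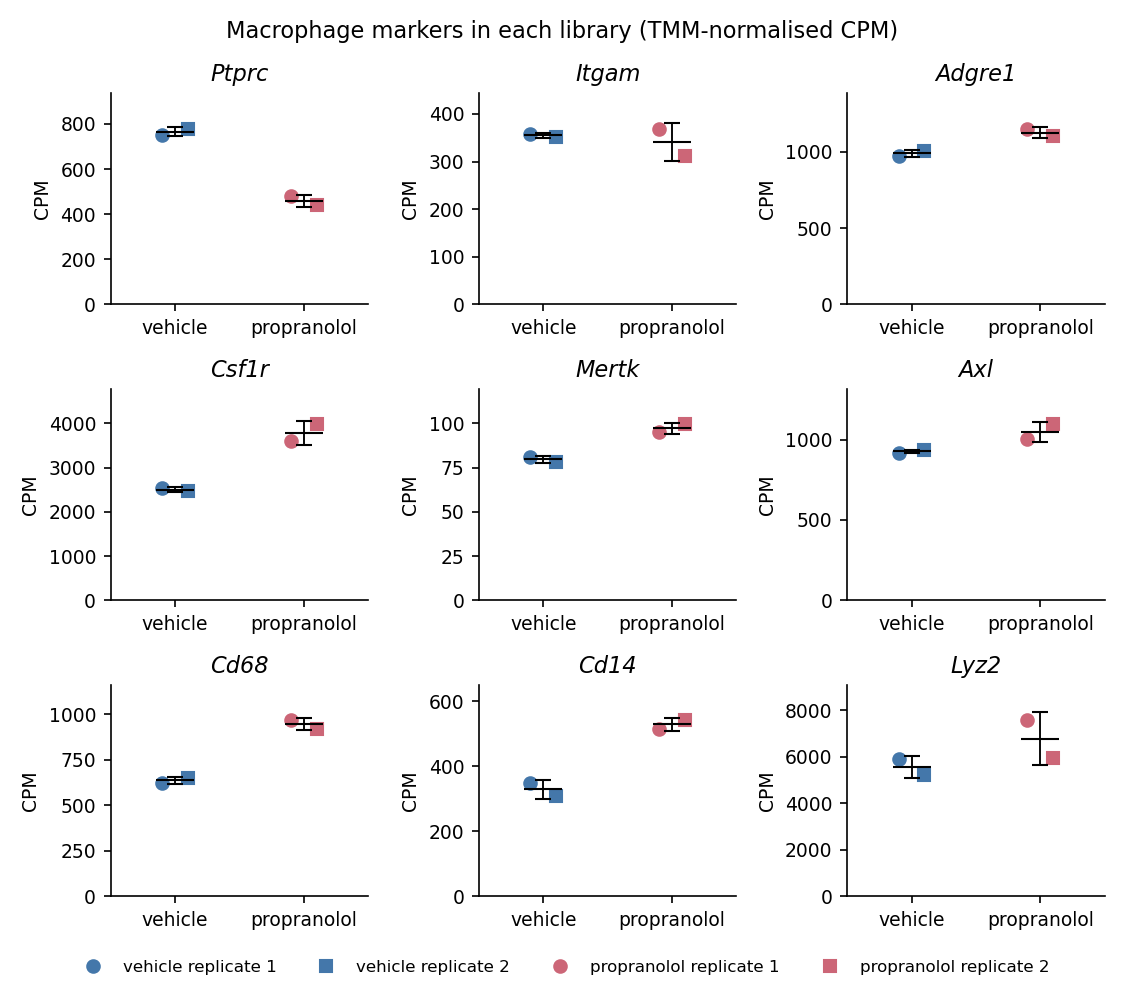
TMM-normalized CPM (vertical axis, from 0) of the 9 markers in vehicle and propranolol libraries, with circles for replicate 1, squares for replicate 2, and bars for the mean and SD of 2 libraries. Ptprc is lower and Csf1r, Cd68 and Cd14 are higher in both propranolol libraries, while the libraries of Itgam overlap.

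To describe which genes resembled the sort markers, the profiles of 4178 genes with a mean of at least 50 CPM were compared with theirs over the 4 libraries by the Euclidean distance of centred log2 CPM. Among the nearest to Ptprc were Dusp11 (distance 0.0306) and Rapgef6 (0.0471), of which Dusp11 had 97.4, 102, 60.9 and 56.3 CPM in vehicle 1, vehicle 2, propranolol 1 and propranolol 2. Those nearest to Itgam were Gars (0.0174), Dnajc14 (0.0282) and Gspt1 (0.0309), and those nearest to Adgre1 were Wipi2 (0.0315), Vps8 (0.0322) and Ssh1 (0.0324). With 4 libraries many genes lie close to any profile, and ranking by Pearson correlation kept 1, 2 and 0 of the 3 nearest genes for Ptprc, Itgam and Adgre1.

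Among the receptor tyrosine kinases, Csf1r rose, whereas Mertk and Axl were not called. Csf1r (ENSMUSG00000024621.15), on the plus strand of chr18:61100598-61132149, had 2549 and 2460 CPM in the vehicle libraries and 3592 and 3976 CPM in the propranolol libraries. Every propranolol library lay above every vehicle library, with means of 2505 ± 63.0 and 3784 ± 272 CPM (SD, n = 2 each). The log2 fold change of 0.59 (SE 0.09, edgeR adjusted p = 0.000624), or 1.51-fold, stood just past the 1.5-fold threshold. It was 0.55 without propranolol replicate 2, 0.36 with library totals (edgeR adjusted p = 0.00800) and 0.20 after the GC correction (edgeR adjusted p = 0.166), all under the threshold of fold. Of its exon bases 15.12% overlap Hmgxb3 on the opposite strand. The stated counting parameters set no strand option, and fragments that overlap both genes are then left out by the default of featureCounts, so the level of Csf1r may be too low. Hmgxb3 had 29.1, 35.5, 37.4 and 44.3 CPM in vehicle 1, vehicle 2, propranolol 1 and propranolol 2, far below Csf1r.

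The ligands of CSF1R were low in these sorted cells and were not called. Csf1 had 38.0 and 34.0 CPM in the vehicle and 38.7 and 32.0 CPM in the propranolol libraries (log2 fold change -0.02), and Il34 had between 0.392 and 1.48 CPM. Of the 17 genes on the list of ligands and signalling, 4 were called higher and 1 lower. This share is near the 27.8% of all tested genes called in either direction. The median log2 fold change was -0.02, equal to that of all tested genes. Pik3cd, a catalytic subunit of PI3-kinase, and Plcg2, a phospholipase, each rose with a log2 fold change of 0.60, and Dok2, an adaptor that dampens kinase signals, rose with 0.94. After the GC correction these genes had 0.14, 0.20 and 0.48 and were not called. Trem2, a lipid receptor of macrophages that signals through DAP12, had 319 and 318 CPM in the vehicle and 589 and 633 CPM in the propranolol libraries, a 1.91-fold rise (log2 fold change 0.94, SE 0.09, edgeR adjusted p = 0.000125). It was the only gene of this list called higher after the GC correction, at 0.73. Tyrobp, which encodes DAP12 and was the most abundant of the list, had a log2 fold change of 0.51, and Spi1, second in abundance per length, had 0.57 (SE 0.09, edgeR adjusted p = 0.000877), so neither reached 1.5-fold. Sos1, an exchange factor that activates RAS, fell with -0.78 and had -0.15 after the GC correction. The call was then made for Grb2, the adaptor of SOS1, at -0.60.

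Mertk (ENSMUSG00000014361.5), on the plus strand of chr2:128698956-128802894, had 81.1 and 78.1 CPM in the vehicle and 95.1 and 99.4 CPM in the propranolol libraries. The groups did not overlap, and the log2 fold change was 0.29 (SE 0.10) with an edgeR adjusted p of 0.0418, under 1.5-fold. At an adjusted p under 0.05 and any fold, 5 of the 9 markers passed, beside 42.2% of all tested genes. The DESeq2 adjusted p of Mertk was 0.0528. Mertk was the lowest of the 9 markers per length, and it was ranked between 2316 and 2557 among the genes of a library.

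Axl (ENSMUSG00000002602.16), on the minus strand of chr7:25757273-25788705, had 918 and 934 CPM in the vehicle and 1003 and 1094 CPM in the propranolol libraries. Its libraries did not overlap between the groups, but the log2 fold change of 0.18 (SE 0.09) did not pass the test (edgeR adjusted p = 0.136), and its sign turned after the GC correction (-0.21) and with library totals (-0.05). Per length Axl exceeded Mertk by 9.75 and 10.3 times in the vehicle and by 9.09 and 9.48 times in the propranolol libraries. Tyro3, the third receptor of this family, had between 1.44 and 2.63 CPM and was not called. The cells thus held transcripts of Axl well above those of Mertk, and of Mertk above those of Tyro3, in all 4 libraries.

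Around these receptors, 4 of 19 genes were called higher and 3 lower, beside 27.8% of all tested genes called in either direction. The median log2 fold change of the list was 0.17. The bridging ligands went opposite ways. Gas6 rose from 257 and 223 CPM to 394 and 458 CPM (log2 fold change 0.83, SE 0.11, edgeR adjusted p = 0.000451), and Pros1, which encodes protein S, fell from 56.3 and 53.7 CPM to 36.7 and 32.2 CPM (log2 fold change -0.67, SE 0.12, edgeR adjusted p = 0.00176). Per length Gas6 was 7.34 and 6.66 times as abundant as Pros1 in the vehicle libraries and 17.2 and 22.8 times in the propranolol libraries. After the GC correction the fold changes were 0.37 for Gas6 and -0.28 for Pros1, in the same directions, and neither was called.

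Stab1, a scavenger receptor that also takes up dying cells, had 2646 and 2884 CPM in the vehicle and 6316 and 7960 CPM in the propranolol libraries. With a log2 fold change of 1.37 (SE 0.11, edgeR adjusted p = 0.000103) and 0.90 after the GC correction it was called higher in both. Cd36, a scavenger receptor for lipids, was called higher after the correction only, at 0.80 (edgeR adjusted p = 0.00722) against -0.13 without it. Rac2, a small GTPase of phagocytes, rose with 0.64, and Nr1h3, the liver X receptor alpha that responds to engulfed sterols, rose with 0.59, and neither was called after the correction (0.32 and 0.14). Twist1, a transcription factor known from mesenchymal cells as well as from signalling of AXL, fell from 6.26 and 3.42 CPM to 1.62 and 1.5 CPM, and Timd4, a receptor for phosphatidylserine, fell from 1.68 and 1.43 CPM to 0.604 and 0.392 CPM. Timd4 had 6 to 36 counts in a library and was not called after the GC correction (-1.28, edgeR adjusted p = 0.129), whereas Twist1 was (-2.06). The fibroblast and fibrosarcoma list moved in the same direction as Twist1, as given above, and its part in that result was not tested. Socs3, a feedback inhibitor of cytokine signalling that was second in the list by mean TPM over the 4 libraries but below Gas6 in the propranolol group, had a log2 fold change of 0.17 (-0.30 after the GC correction) and was not called.

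Of the lysosomal and antibacterial markers, Cd14 rose, Cd68 stayed just under the threshold and Lyz2 was not called. Cd68 (ENSMUSG00000018774.13), on the minus strand of chr11:69664213-69666153, had 623 and 651 CPM in the vehicle and 967 and 921 CPM in the propranolol libraries. The groups were well separated, and the log2 fold change of 0.57 (SE 0.09, edgeR adjusted p = 0.000884), or 1.48-fold, missed the threshold of 1.5-fold by little. Csf1r at 1.51-fold and Cd68 at 1.48-fold therefore lay on different sides of the threshold while their values differed by less than the SE of either. Without vehicle replicate 1, vehicle replicate 2 or propranolol replicate 2 the log2 fold change of Cd68 was 0.59, 0.61 or 0.63 and the gene was called, and after the GC correction it was 0.24 (edgeR adjusted p = 0.0946). Lamp1 and Lamp2, the abundant lysosomal membrane proteins of the family of CD68, differed from each other. Lamp1 had 1052 and 969 CPM in the vehicle and 1317 and 1292 CPM in the propranolol libraries (log2 fold change 0.37, not called), and Lamp2, with 38.7% GC, fell from 535 and 454 CPM to 338 and 274 CPM (log2 fold change -0.69, or 0.21 after the GC correction).

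Cd14 (ENSMUSG00000051439.6), on the minus strand of chr18:36725067-36726798, had 349 and 308 CPM in the vehicle and 515 and 541 CPM in the propranolol libraries. All propranolol values were above all vehicle values, with means of 329 ± 29.4 and 528 ± 18.8 CPM (SD, n = 2 each). The log2 fold change was 0.68 (SE 0.10, edgeR adjusted p = 0.000610), or 1.61-fold. It was 0.45 with library totals and 0.38 after the GC correction, where the edgeR adjusted p was 0.0271, so that the direction held and the 1.5-fold threshold was not passed. Cd14 and Mertk were the markers with an adjusted p under 0.05 after that correction.

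Of the 12 co-receptors and adaptors of CD14, 0 were called higher by edgeR and 3 were called lower, a share near the 27.8% of all tested genes called in either direction, and the list had a median of -0.08 on the log2 scale. Tlr4, the receptor for lipopolysaccharide, fell from 63.6 and 59.7 CPM to 41.1 and 36.2 CPM (log2 fold change -0.67, SE 0.12, edgeR adjusted p = 0.00163), and Ly96, whose product MD-2 binds the lipid beside TLR4, fell from 7.14 and 6.41 CPM to 2.72 and 2.49 CPM. Cd180, a relative of TLR4, fell with a log2 fold change of -0.69. Per length Cd14 was 17.6 and 16.5 times as abundant as Tlr4 in the vehicle libraries and 40.1 and 47.9 times in the propranolol libraries. The GC contents of these transcripts also lie apart, with 39.4% for Tlr4, 41.1% for Ly96 and 52.5% for Cd14, and the corrected values were 0.14 for Tlr4, -0.76 for Ly96 and -0.52 for Cd180, where 0 of the 12 genes were called by edgeR. Ly86 and Tlr2, the most abundant of the list, had log2 fold changes of -0.17 and -0.11.

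Monocytes and neutrophils also express Cd14, and part of their genes were called higher after propranolol. Of the monocyte list 6 of 12 genes were called higher and 0 lower, both before and after the GC correction. Before it, 12.2% of all tested genes were called higher and 15.6% lower. The summed TPM of the monocyte list was 2320, 2308, 4150 and 3767 in vehicle 1, vehicle 2, propranolol 1 and propranolol 2. Its most abundant gene, Ifitm3, an interferon-induced membrane protein that macrophages express too, had means of 1502 and 2984 TPM in the vehicle and propranolol groups. The other 11 genes summed to 837, 787, 994 and 956 TPM, a sum formed after the levels were seen. Ccr2, the chemokine receptor of inflammatory monocytes, had 453, 397, 306 and 262 CPM (log2 fold change -0.58, edgeR adjusted p = 0.00249, under 1.5-fold, and 0.23 after the GC correction). Ly6c2, their surface antigen, had 39.1, 36.2, 62.5 and 38.3 CPM and overlapped between the groups. Ccr2 and Ly6c2 are named after their values were seen. Of the neutrophil list 12 of 17 genes were tested, 9 were called higher and 0 lower, and the summed TPM was 458, 490, 1003 and 1043. S100a9, an alarmin and its most abundant gene, had means of 128 TPM in the vehicle and 448 TPM in the propranolol group. Ly6g, the surface antigen that defines mouse neutrophils and is named here after its values were seen, had 0, 0.0796, 0.467 and 0.523 CPM and was too low to test. Neutrophils without F4/80 lie outside the gate of the sort. The part of these cells in the rise of Cd14 was not tested.

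Lyz2 (ENSMUSG00000069516.8), on the minus strand of chr10:117277331-117282321, had 5880 and 5217 CPM in the vehicle and 7561 and 5954 CPM in the propranolol libraries. The lowest propranolol library stood only just above the highest vehicle library, and the spread within the propranolol group, 6758 ± 1137 CPM (SD, n = 2), was the widest among the markers in relation to its mean. The log2 fold change of 0.28 (SE 0.11) had an edgeR adjusted p of 0.0710. It ranged from 0.10 without propranolol replicate 1 to 0.48 without propranolol replicate 2. Lyz1, the neighbouring lysozyme gene that is mostly known from the gut, had 8.62 and 7.68 CPM in the vehicle and 12.1 and 8.63 CPM in the propranolol libraries, and Lyz2 exceeded it 655, 652, 600 and 662 times per length. Of the 100-base words of the longest Lyz2 transcript 1.97% also occur in Lyz1, so few reads could be shared between these copies.

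**Figure D3:**
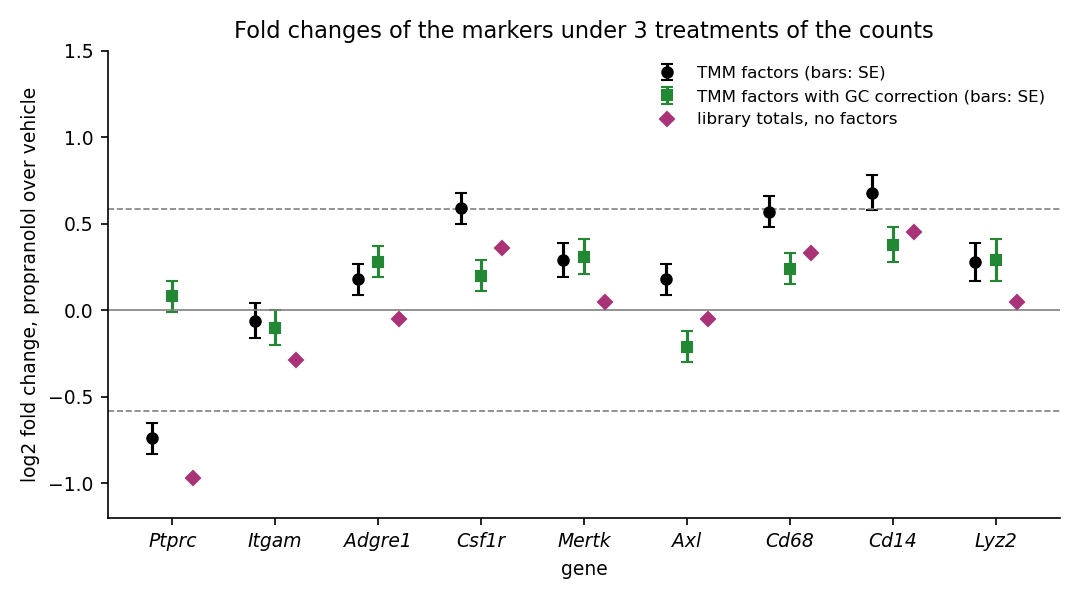
Log2 fold change of propranolol over vehicle (vertical axis) for the 9 markers (horizontal axis) from edgeR with TMM factors (circles, bars are SE), with TMM factors and the GC correction (squares, bars are SE) and with library totals alone (diamonds, no bars), where dashed lines mark 1.5-fold. Circles of Ptprc, Csf1r and Cd14 lie past the lines, no square does, and of the diamonds Ptprc does at -0.97.

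Scaling by library totals lowered the fold change of every marker, because the median log2 fold change of all tested genes was -0.25 with totals and -0.02 with TMM factors. Beside that median of -0.25, values with totals were -0.97 for Ptprc, -0.29 for Itgam, -0.05 for Adgre1 and Axl, 0.05 for Mertk and Lyz2, 0.33 for Cd68, 0.36 for Csf1r and 0.45 for Cd14. Ptprc was the only marker called in that fit. Adgre1 and Axl changed sign with this scaling.

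Ratios of markers within a library do not depend on the scaling of libraries. Per length, Csf1r was 10.7 and 10 times as abundant as Ptprc in the vehicle libraries and 23.8 and 28.6 times in the propranolol libraries, a log2 difference of 1.33 (pooled SD 0.14). Cd68 went from 12.1 and 12.2 times to 29.4 and 30.4 times the level of Ptprc, and Adgre1 from 7.32 and 7.31 times to 13.6 and 14.1 times. The other ratios to Ptprc were also higher in both propranolol libraries than in both vehicle libraries, with log2 differences from 0.67 for Itgam to 1.42 for Cd14. The size of these ratios, though not their difference between the groups, depends on the length taken, since with the longest transcript the mean of Ptprc was 259 in place of 105 TPM and that of Csf1r 1563 in place of 1646 TPM. All 8 ratios share Ptprc as denominator, and their two-sided exact permutation p was 0.33, the smallest that 4 libraries in groups of 2 allow. With GC-corrected fold changes the differences ran from -0.29 for Axl to 0.30 for Cd14.

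By level per length the markers spanned a wide range, in the order Lyz2, Cd68, Csf1r, Adgre1, Cd14, Axl, Itgam, Ptprc and Mertk. Lyz2 had 14645 and 13376 TPM in the vehicle and 15871 and 13006 TPM in the propranolol libraries, and was ranked between 5 and 7 among all genes of a library. Cd68 had 1625, 1748, 2126 and 2105 TPM and Csf1r 1447, 1438, 1718 and 1980 TPM in vehicle 1, vehicle 2, propranolol 1 and propranolol 2, with ranges that overlapped over the 4 libraries. Adgre1 had 986, 1049, 981 and 975 TPM, below all values of Csf1r. The order of Cd68 and Csf1r depends on the length taken, with means of 1901 and 1646 TPM over all exon bases, 1502 and 1563 TPM with the longest transcript, and 1899 and 1937 TPM over unshared bases. Cd14 had 661, 600, 821 and 898 TPM and Axl 598, 626, 551 and 625 TPM, so these neighbours overlapped. Itgam had 234, 236, 203 and 179 TPM, Ptprc 135, 144, 72.2 and 69.3 TPM, and Mertk 61.3, 60.8, 60.6 and 65.9 TPM, without overlap between neighbours. The place of Ptprc depends on the length taken, since its annotated exons add up to 18313 bases but its longest transcript has 5740. With the longest transcript its mean was 259 TPM in place of 105 and lay above that of Itgam, at 177 TPM. Ptprc was ranked 1096 and 1030 among the genes of the vehicle libraries and 2111 and 2226 among those of the propranolol libraries.

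**Figure D4:**
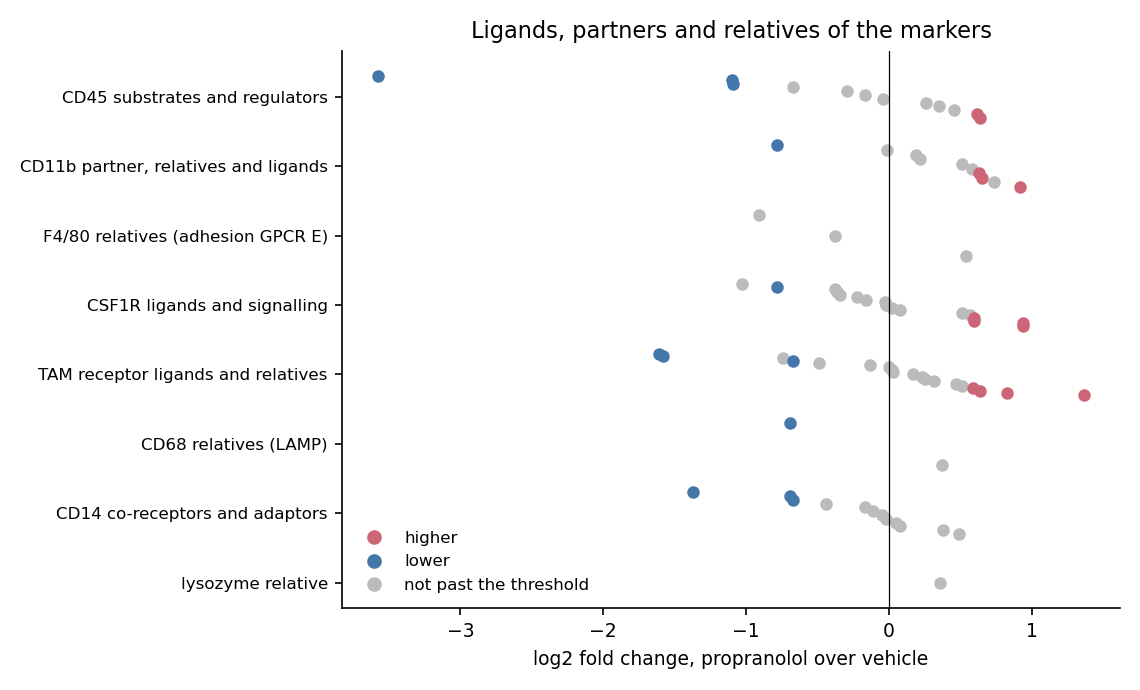
Log2 fold change of propranolol over vehicle (horizontal axis) of the tested ligands, partners and relatives of the markers, grouped by list (vertical axis), with colours for genes called higher, called lower or not past the threshold, and with TAM receptor standing for TYRO3, AXL and MERTK, and Cd55, a ligand, among the F4/80 relatives. Points of both colours occur in the lists of CD45, CD11b, CSF1R and the TAM receptors, and the list of CD14 holds 3 lower and 0 higher genes.

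Over all lists, 76 of 79 listed ligands, partners and relatives were tested, of which 13 were called higher and 12 lower, or 32.9% beside 27.8% of all tested genes. Their median log2 fold change was 0.03. After the GC correction 3 were called higher and 6 lower, and 6 genes were called in both. Other macrophage genes, chosen as a further check on the identity of the sorted cells, held 5 higher and 1 lower among 33 tested genes, or 18.2%, with a median of 0.30. Their summed TPM of 75227 and 74580 in the vehicle and 76003 and 76004 in the propranolol libraries was many times that of any other cell type list. The sums lay within a few percent of each other. Without Apoe, the most abundant of these genes, which encodes an apolipoprotein, they were 58734 and 58941 TPM in the vehicle and 58068 and 55382 TPM in the propranolol libraries.

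The highest log2 fold changes among those genes were those of Gpnmb, a glycoprotein of lipid-laden macrophages, with a log2 fold change of 1.09, Cd163, the receptor for haptoglobin and haemoglobin, with 0.96, and Trem2, with 0.94 as above. Ctsd, the lysosomal protease cathepsin D, followed with 0.78, and Laptm5, a lysosomal membrane protein of blood cells, with 0.61. Gpnmb, Cd163 and Trem2 were also called higher after the GC correction, and Ctsd (0.34) and Laptm5 (0.17) were not. The correction added the scavenger receptor genes Msr1 (0.96, against 0.03) and Mrc1 (0.73, against 0.33) as higher and C1qa (-0.63, against -0.18), of complement, as lower, which makes 5 higher and 1 lower with a median of 0.11. At the other end, Cd84, a receptor of the SLAM family, fell with -0.59, but had 0.23 after the GC correction (edgeR adjusted p = 0.135), so that its call was lost and its direction turned. Mpeg1 (perforin-2) had -0.55, Cybb (the catalytic subunit of the phagocyte oxidase) -0.50 and Cd53 (a tetraspanin) -0.30, none of them called. Cd53 had 0.44 after the GC correction (edgeR adjusted p = 0.0117), in the opposite direction. Without propranolol replicate 2, 11 of the 33 genes were called.

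**Figure D5:**
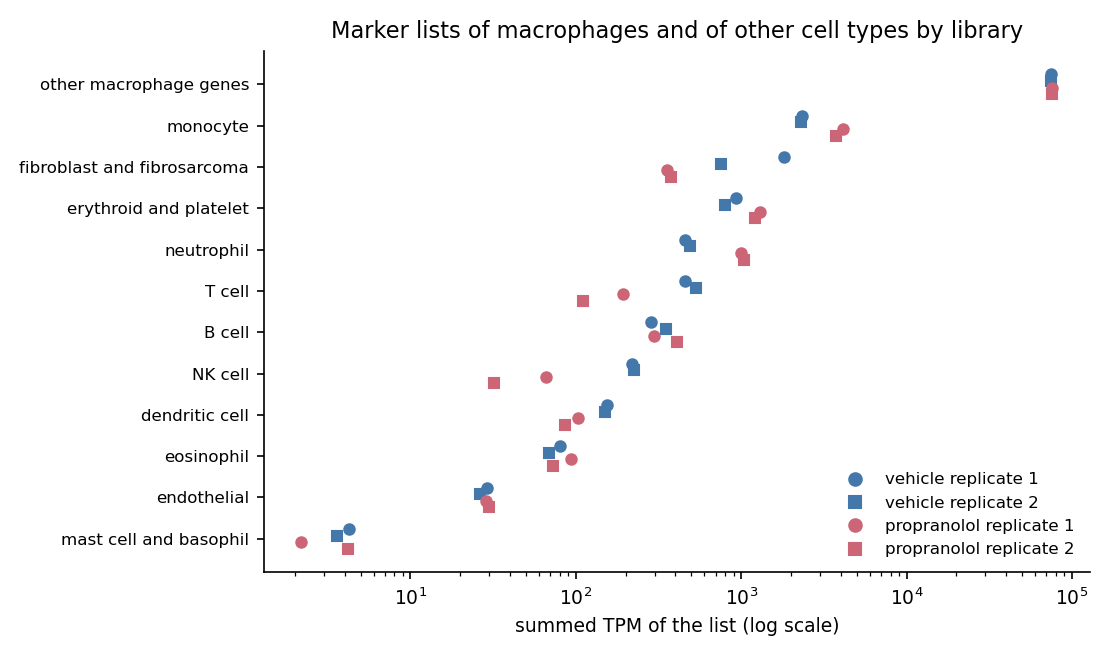
Summed TPM (horizontal axis, log scale) of marker lists of macrophages and of other cell types (vertical axis) in each library, with circles for replicate 1 and squares for replicate 2. T cell, NK cell and fibroblast lists are lower and monocyte and neutrophil lists are higher in both propranolol libraries, the monocyte list mostly through Ifitm3, and the macrophage list lies above all others.

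Of the remaining cell types, the dendritic cell list had 5 of 12 genes called lower and 0 higher. Among all tested genes 15.6% were called lower and 12.2% higher. The summed TPM of the dendritic cell list was 155 and 151 in the vehicle and 103 and 86.3 in the propranolol libraries. Its most abundant gene over all libraries was Batf3, a transcription factor of this lineage, although Fscn1, which bundles actin, had more in the mean of the vehicle group and was called lower. The B cell list, led by Ighm, the heavy chain of IgM, had a summed TPM of 287, 352, 298 and 412 in vehicle 1, vehicle 2, propranolol 1 and propranolol 2, and its 5 tested genes of 8 held 2 higher and 1 lower. The erythroid and platelet list, led by Pf4 (platelet factor 4), had 936 and 803 TPM in the vehicle and 1305 and 1213 TPM in the propranolol libraries, with 2 of 9 tested genes called higher. The genes other than Pf4 summed to 232, 146, 218 and 215 TPM in vehicle 1, vehicle 2, propranolol 1 and propranolol 2 and overlapped between the groups. The endothelial list, led by Pecam1 (CD31), stayed between 26.5 and 30.0 TPM, and the eosinophil list, led by Ear2, between 69.2 and 94.0 TPM. Epx, the peroxidase that defines eosinophils, was at 0 in all libraries, as were Mcpt8, Fcer1a and Ms4a2 of the mast cell and basophil list, whose most abundant gene was Kit. The sorted cells carried the macrophage genes at high levels in both groups, and the lists of the other cell types moved in both directions beside them.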

How the data were processed

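RNA of sorted tumor macrophages was sequenced in 2 vehicle and 2 propranolol libraries, grouped by the labels. The authors deposited raw counts per gene in 1 table, made per the methods and processing notes by alignment to mm10 with STAR 2.7.1a, filtering for well mapped reads with SAMtools 1.9 and counting of fragments over exons with featureCounts 1.6.4. DESeq2 1.39.0 is named in the notes as well, the stated parameters set no strand option, and the annotation release is not given in the sources used here. Depth ran from 13798249 to 39818103 counts, which sets the counting error of low genes. All columns were used (0 were left out).

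Row identifiers were matched without their version to GENCODE M21 (54079 of 54146 rows, 67 unmatched). The version was the same for 52480 rows and for 6 of the 9 markers. Genes with enough counts were kept with filterByExpr (minimum count 10), which left 14688, and groups were compared with the quasi-likelihood test of edgeR 4.0.16 in R 4.3.3 with TMM factors and no covariate, after the fits were tested on simulated data. A call needed an adjusted p under 0.05 and more than 1.5-fold. GC content was corrected by a natural spline of 5 degrees of freedom passed as offsets, for 14681 genes. TPM used all exon bases of a gene. Alternatives used DESeq2 1.42.0, limma 3.58.1 (voom), other scalings, filters, thresholds and lengths, a replicate block, and each library left out. Labels and methods do not say how the animals of a group were kept apart beyond naming biological replicates. The p-values therefore measure the spread between these libraries, which edgeR estimates in part from all genes together.

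Named genes were all 9 markers, the called and the 2 most abundant genes of each partner list, the 5 highest and 5 lowest of the other macrophage genes, the most abundant gene and genes at 0 of each cell type list, and the 3 genes nearest to each sort marker, of which a few are not reported here. Genes called after the GC correction alone and Fscn1 were named after their values were seen. The markers, lists and tests were chosen with earlier results of these data known. Promoter sequences came from RefSeq, where 6 of the 9 markers had a window that was used.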

Additional observations from a re-analysis of the deposited data

How the results depend on the processing

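With 2 libraries a group, a library left out leaves a group of 1, which is assumed to vary like the other, and the cause of the shifts below was not tested. With the 1.5-fold threshold inside the test (glmTreat), 1093 of all tested genes, 0 markers, 7 partner genes and 2 other macrophage genes were called, against 4084, 3, 25 and 6 in the edgeR fit of the report, and 1 marker had an unadjusted p under 0.05. At any fold the numbers were 6204, 5, 40 and 24, and at a log2 fold change above 1.5 they were 728, 0, 3 and 0. After the GC correction 1585 of all tested genes, 0 markers (6 at an unadjusted p under 0.05) and 9 partner genes were called. Without a filter on low counts 11 other macrophage genes were called. With library totals 1 marker was called. The DESeq2 Wald test called 3 markers.

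Directions turned after the GC correction for Ptprc (0.08) and Axl (-0.21), with library totals for Adgre1 and Axl (-0.05 each), and without the filter for Itgam (0.01). The log2 differences of the ratios to Ptprc became -0.18 for Itgam, 0.20 for Adgre1, 0.12 for Csf1r, 0.23 for Mertk, -0.29 for Axl, 0.17 for Cd68, 0.30 for Cd14 and 0.21 for Lyz2. Leaving out 1 library gave 3615 to 4329 called genes, 3 to 4 markers, 22 to 27 partner genes and 7 to 11 other macrophage genes, and a log2 fold change of Itgam from -0.18 to 0.09. Of the other markers, Csf1r lost its call with 7 of 15 alternatives and Cd14 with 4, while Lyz2 and Mertk kept their direction and were called with none.

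Vehicle and propranolol libraries share the replicate numbers 1 and 2, and the labels do not say what a number marks. Deviations of same-numbered libraries correlated with 0.169 across genes. With a replicate block 4362 of all tested genes, 3 markers, 26 partner genes and 6 other macrophage genes were called, and with the block and the GC correction together 2031, 0, 10 and 6, with log2 fold changes of 0.08 for Ptprc and -0.21 for Axl.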

Other observations

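Of 10 genes that are often used as internal standards 3 were called higher and 2 lower, beside 27.8% of all tested genes called in either direction, the other 5 were not called, and the median of the 10 was 0.00 on the log2 scale. Actb, which encodes beta-actin of the cytoskeleton, had 12531 and 11904 CPM in the vehicle and 22592 and 21850 CPM in the propranolol libraries, which is 0.86 on the log2 scale (SE 0.07, edgeR adjusted p = 0.000103). Gapdh, a glycolytic enzyme, had 1027 and 1094 CPM in the vehicle and 2140 and 2077 CPM in the propranolol libraries, with a log2 fold change of 0.99. B2m, the light chain of class I antigen-presenting molecules, fell with -0.67 and Hprt, an enzyme of purine salvage, with -0.74. After the GC correction Actb (0.65) and Gapdh (0.68) were called higher, and B2m (-0.06) and Hprt (-0.02) were not called. These 4 genes were named after their values were seen.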
